A study of Mus musculus with 12 samples.

Results

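The 9 genes described here, Tfam, Tfb1m, Tfb2m, Polrmt, Polg, Polg2, Ssbp1, Nrf1 and Gabpa, maintain and transcribe mitochondrial DNA or encode nuclear factors that drive genes for mitochondria. They were chosen by name, and every probe set of the array that the annotation pairs with 1 of these symbols was included, which gave 22 of 45101 probe sets. Of these, 18 had a signal above log2 4 on at least 3 of the 12 arrays and were tested, and each of the 9 genes kept at least 1. The other 4, at most log2 3.74 on any array, were 3 of the 5 probe sets of Ssbp1 and 1 of the 4 of Nrf1. White adipose tissue was profiled on 12 Affymetrix arrays in 4 groups of 3: mice at 4 °C for 1 week and their controls, and mice at 4 °C for 5 weeks and their controls. All were male C57/BL6 mice of 6 to 8 weeks, first housed at 22 °C and, per the labels, adapted to 18 °C for 1 to 3 weeks before the move to 4 °C. Whether the controls also passed through 18 °C is not stated, and the labels give the controls' own temperature both as 30 °C and as room temperature. No genetic change is labelled. The fat depot is not named, and the labels do not tie each array to an animal of its own, so p-values reflect only how far these arrays vary, which may be technical error.

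Mitochondria carry their own circular genome, packed by the protein Tfam, which bends DNA at the promoters and coats it into nucleoids. Transcription needs the single-subunit RNA polymerase Polrmt together with Tfam and Tfb2m, which opens the promoter, whereas the related Tfb1m methylates the small ribosomal RNA of mitochondria. Replication uses the DNA polymerase gamma, made of the catalytic subunit Polg and the accessory subunit Polg2, and the single-stranded DNA binding protein Ssbp1. Nrf1 and Gabpa, the DNA-binding subunit of nuclear respiratory factor 2, are transcription factors of the nucleus that bind promoters of many respiratory chain genes, and in human cells sites for them have been described in the promoters of TFAM, TFB1M and TFB2M. Brown and beige fat cells hold many more mitochondria than white fat cells.

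The promoters of the genes that the results turn on are shown because Nrf1 and Gabpa are themselves among the genes measured. They come from RefSeq on GRCm38.p6 and run from 250 bases before to 50 bases after the annotated start, 5′ to 3′ on the gene's strand, and the table held 10 promoters for the 9 genes (2 for Nrf1). Searched on both strands were a core of the Nrf1 site, GCGCATGC, an 8-base Gabpa and ETS site, CCGGAAGT, and its 6-base ETS core, CCGGAA, which lies within the 8-base site. Matches stand in capitals.
Tfb2m (chr1:179546227-179546526, minus strand): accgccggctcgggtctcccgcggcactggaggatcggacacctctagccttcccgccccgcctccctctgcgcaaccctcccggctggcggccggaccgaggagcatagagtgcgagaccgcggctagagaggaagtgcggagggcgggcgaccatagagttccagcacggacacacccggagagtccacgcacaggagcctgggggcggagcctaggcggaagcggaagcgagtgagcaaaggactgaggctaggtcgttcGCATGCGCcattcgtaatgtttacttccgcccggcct
Polrmt (chr10:79746532-79746831, minus strand): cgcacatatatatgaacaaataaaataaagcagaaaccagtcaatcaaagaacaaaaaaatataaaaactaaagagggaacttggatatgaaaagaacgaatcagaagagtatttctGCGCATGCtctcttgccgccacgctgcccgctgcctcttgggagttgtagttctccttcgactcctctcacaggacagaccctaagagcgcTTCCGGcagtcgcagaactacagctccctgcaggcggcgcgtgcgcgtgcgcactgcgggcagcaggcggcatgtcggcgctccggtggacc
Gabpa (chr16:84834874-84835173, plus strand): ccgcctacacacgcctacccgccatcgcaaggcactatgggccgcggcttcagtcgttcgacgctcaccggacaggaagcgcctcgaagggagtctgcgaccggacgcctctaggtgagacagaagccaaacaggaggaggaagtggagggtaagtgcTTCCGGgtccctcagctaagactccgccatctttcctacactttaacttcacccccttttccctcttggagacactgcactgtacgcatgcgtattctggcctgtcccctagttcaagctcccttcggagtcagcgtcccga
Tfam (chr10:71237995-71238294, minus strand): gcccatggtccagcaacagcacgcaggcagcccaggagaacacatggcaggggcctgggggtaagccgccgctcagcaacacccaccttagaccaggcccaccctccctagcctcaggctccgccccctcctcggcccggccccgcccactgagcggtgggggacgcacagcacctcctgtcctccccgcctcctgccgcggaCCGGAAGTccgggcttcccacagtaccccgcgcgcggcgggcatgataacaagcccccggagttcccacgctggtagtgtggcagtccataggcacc

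The Nrf1 core occurred in the promoters of Tfb2m and Polrmt, 2 of the 9 genes, and in 2.71% of all 32851 promoters of the table. In Polrmt it began 133 bases before the start, and in Tfb2m, on the opposite strand, at base 14 of the transcript. The 8-base Gabpa and ETS site occurred in Tfam, 47 bases before the start, and in Polg, 38 bases before it, against 3.89% of all promoters. The 6-base core was found in 7 of the 9 genes (Gabpa, Polg, Polg2, Polrmt, Ssbp1, Tfam and Tfb1m) and in 14.9% of all promoters. Neither promoter of Nrf1 held any of the 3 strings. Only these exact letters were searched, so variants of the sites are not marked. A match is a string of letters, not a measured binding site.

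Some properties of the arrays moved with the groups. Intact RNA gives similar signals at both ends of a transcript. For Gapdh the difference of the 3′ and 5′ controls was -0.08 to 0.34 in cold arrays at 1 week and 0.90 to 3.12 in their controls, and 0.19 to 3.01 in cold arrays at 5 weeks against -0.08 to 0.03 in their controls. The same measure for Actb was 1.84 to 2.80 in cold arrays at 5 weeks and 1.04 to 1.16 in their controls. It overlapped at 1 week (1.01 to 1.33 in the cold, 1.22 to 1.35 in controls). The mean signal of 18 tested skeletal muscle markers, of 20 listed, was log2 5.16 to 5.45 in cold arrays at 5 weeks and 8.14 to 8.38 in their controls, and at 1 week it was 9.78 on cold array 2 and 5.58 to 5.96 on the other 5 arrays. Adipoq, the adipocyte hormone, was bright on every array (log2 14.6 to 14.8). Ucp1, which lets brown and beige fat mitochondria make heat, read 14.6 to 15.1 in the cold and 6.32 to 8.15 in controls. Of 10 brown or beige markers 9 were called higher in the cold at both times. All 13 tested lymphocyte markers (of 15 listed) were called lower at both times, as were 11 of 15 macrophage markers at 1 week and 12 at 5 weeks. Of 10 endothelial markers 4 rose and 1 fell at 1 week, and 1 rose and 2 fell at 5 weeks. Of 11 epithelial, epididymal and mesothelial markers 9 had a probe set naming 1 gene. Only 2 were bright enough to test, and 1 of these 2 was called higher at 1 week. What part these differences have in the results below was not tested beyond the covariate fits given there.

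**Figure D1:**
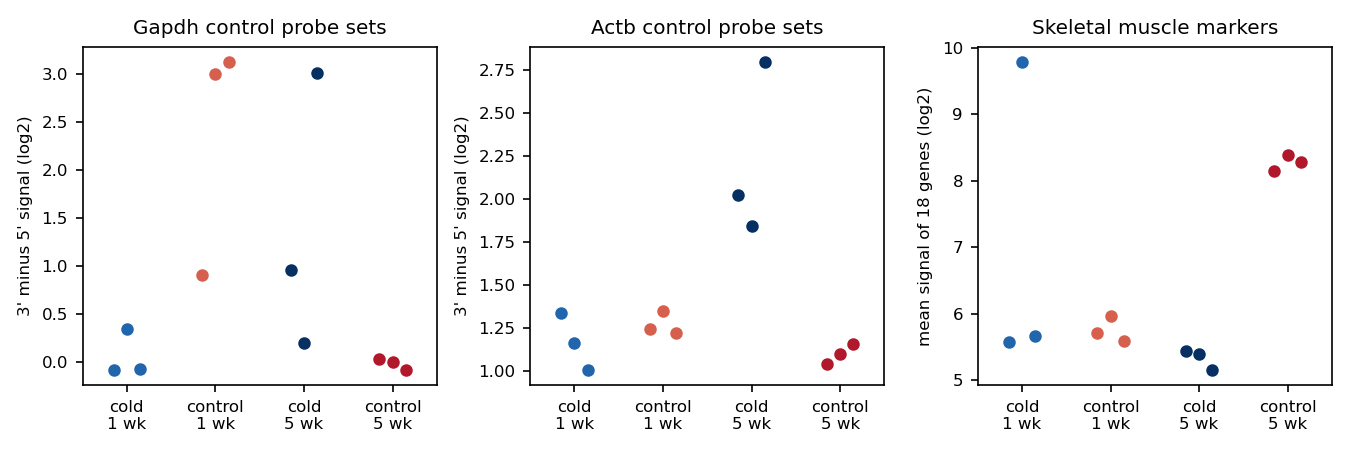
The panels plot, for each of the 12 arrays, how far the 3′ control signal exceeds the 5′ one for Gapdh and Actb and the mean signal of 18 skeletal muscle markers (log2), 1 point per array. Gapdh is highest in 2 controls at 1 week and 1 cold array at 5 weeks, Actb in the cold arrays at 5 weeks, and the muscle mean in the 5 week controls and on cold array 2 of 1 week.

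After 1 week in the cold, of the genes for transcription initiation, Tfb2m and Polrmt rose 2.36-fold and 1.73-fold on their brightest probe sets, while Tfam did not pass the test on either probe set (the difference between the genes was not tested). Gabpa rose on 1 of 2 probe sets, and called probe sets of Nrf1 and Polg were lower. Of the 18 tested probe sets 3 rose and 4 fell, which is 38.9% called. Of all 26510 tested probe sets 44.7% were called (17.5% higher and 27.2% lower), so the share among the 18 was near that of the array. Gene positions are on GRCm38.p6. Each change below is cold minus control on the log2 scale with its standard error (SE) from a limma fit over all tested probe sets, and a called change has a Benjamini-Hochberg adjusted p under 0.05. In bulk tissue fewer cells of a type and less RNA per cell cannot be told apart.

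Tfb2m (chr1:179528052-179546305), the factor that melts the promoter for Polrmt, had signals of log2 10.43, 10.28 and 10.52 in cold arrays at 1 week, against 9.46, 9.31 and 8.73 in controls, on its 1 probe set (1423441_at). All 3 cold arrays lay above all controls, and the control group was the wider one (SD 0.123 in the cold and 0.386 in controls, n = 3 each). The change was 1.24 (SE 0.17, adjusted p = 2.50e-04). At 5 weeks the signals were 10.54, 10.59 and 10.79 in cold arrays and 9.22, 9.0 and 9.25 in controls. Again all cold arrays lay above all controls, and the change was 1.48 (SE 0.17, adjusted p = 1.38e-04), or 2.79-fold. The rise at 1 week stayed called with either 3′ minus 5′ signal or the muscle mean as a covariate (1.13 to 1.30), and that at 5 weeks with Gapdh (1.55) or muscle (1.35) but not with Actb (1.21, adjusted p = 0.0915).

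Polrmt (chr10:79736125-79746604), the RNA polymerase of mitochondria, had log2 9.11, 9.03 and 9.02 in cold arrays at 1 week and 8.12, 8.35 and 8.31 in controls on its brightest probe set (1437377_a_at). At 5 weeks it had 9.39, 9.34 and 9.49 in cold arrays, against 7.90, 7.96 and 8.33 in controls. The groups did not overlap at either time. The change was 0.79 at 1 week (SE 0.12, adjusted p = 4.15e-04) and 1.34 at 5 weeks (SE 0.12, adjusted p = 2.77e-05), which is 2.53-fold at 5 weeks. It was the one probe set of the 9 genes called higher at 5 weeks with the Actb covariate (1.10, adjusted p = 0.0353). The other Polrmt probe set, 1452835_a_at, gave smaller values. It read 7.17, 7.27 and 7.27 in cold arrays at 1 week, against 6.85, 6.81 and 7.05 in controls, all cold arrays above the controls (0.33, SE 0.15, adjusted p = 0.0931), and it was called higher after centring (0.49) and after quantile normalization (0.49, adjusted p = 0.0221). At 5 weeks its cold arrays read 6.69, 7.07 and 7.37 and surrounded the controls at 7.07, 6.88 and 6.92 (0.09, SE 0.15, adjusted p = 0.683).

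Tfam (chr10:71225468-71238328), the packaging protein of the mitochondrial genome, changed little on its brightest probe set (1448224_at). Its signals were log2 9.69, 9.64 and 9.52 in cold arrays at 1 week and 9.67, 9.68 and 9.81 in controls, and 9.55, 9.72 and 9.72 in cold arrays at 5 weeks against 9.65, 9.58 and 9.80 in controls. The groups overlapped at both times. The change was -0.10 at 1 week (95% interval -0.31 to 0.10, adjusted p = 0.381) and -0.02 at 5 weeks (95% interval -0.22 to 0.19, adjusted p = 0.910), so the interval at 5 weeks ends at 0.19. The dimmer probe set, 1456215_at, read 6.99, 6.87 and 7.0 in cold arrays at 1 week and 6.69, 6.89 and 6.73 in controls (0.19, SE 0.13, adjusted p = 0.256), and it was called higher there after centring (0.35, adjusted p = 0.0439). At 5 weeks it read 7.22, 7.08 and 6.73 in cold arrays and 6.75, 6.64 and 6.48 in controls. Here 1 cold array fell among the controls, and the change of 0.39 (SE 0.13, adjusted p = 0.0420) was 1.31-fold. With single arrays left out the change was 0.28 to 0.53. The call ended in 8 of 12 cases, among them 5 of the 6 arrays of 5 weeks: cold array 1 (0.28) or 2 (0.35), and control array 1 (0.45), 2 (0.40) or 3 (0.31). The other 3 were cold arrays 1 and 3 and control array 3 of 1 week, without which the value was still 0.39.

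Tfb1m (chr17:3519250-3557796), the ribosomal RNA methyltransferase related to Tfb2m, was not called at either time on either probe set. On 1449749_s_at it read log2 7.80, 8.02 and 7.80 in cold arrays at 1 week and 8.11, 7.72 and 8.07 in controls (-0.09, SE 0.15), and 7.84, 8.22 and 8.06 in cold arrays at 5 weeks, against 7.49, 7.79 and 7.95 in controls (0.30, SE 0.15, adjusted p = 0.168). The groups overlapped at both times. Its second probe set, 1435924_at, gave 0.10 (SE 0.08) and 0.13 (SE 0.08). After centring 1435924_at was called higher at both times (0.26 and 0.28, adjusted p = 0.0262 and 0.0252), and 1449749_s_at was called higher at 5 weeks after centring (0.45, adjusted p = 0.0401) and after quantile normalization (0.45, adjusted p = 0.0445).

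**Figure D2:**
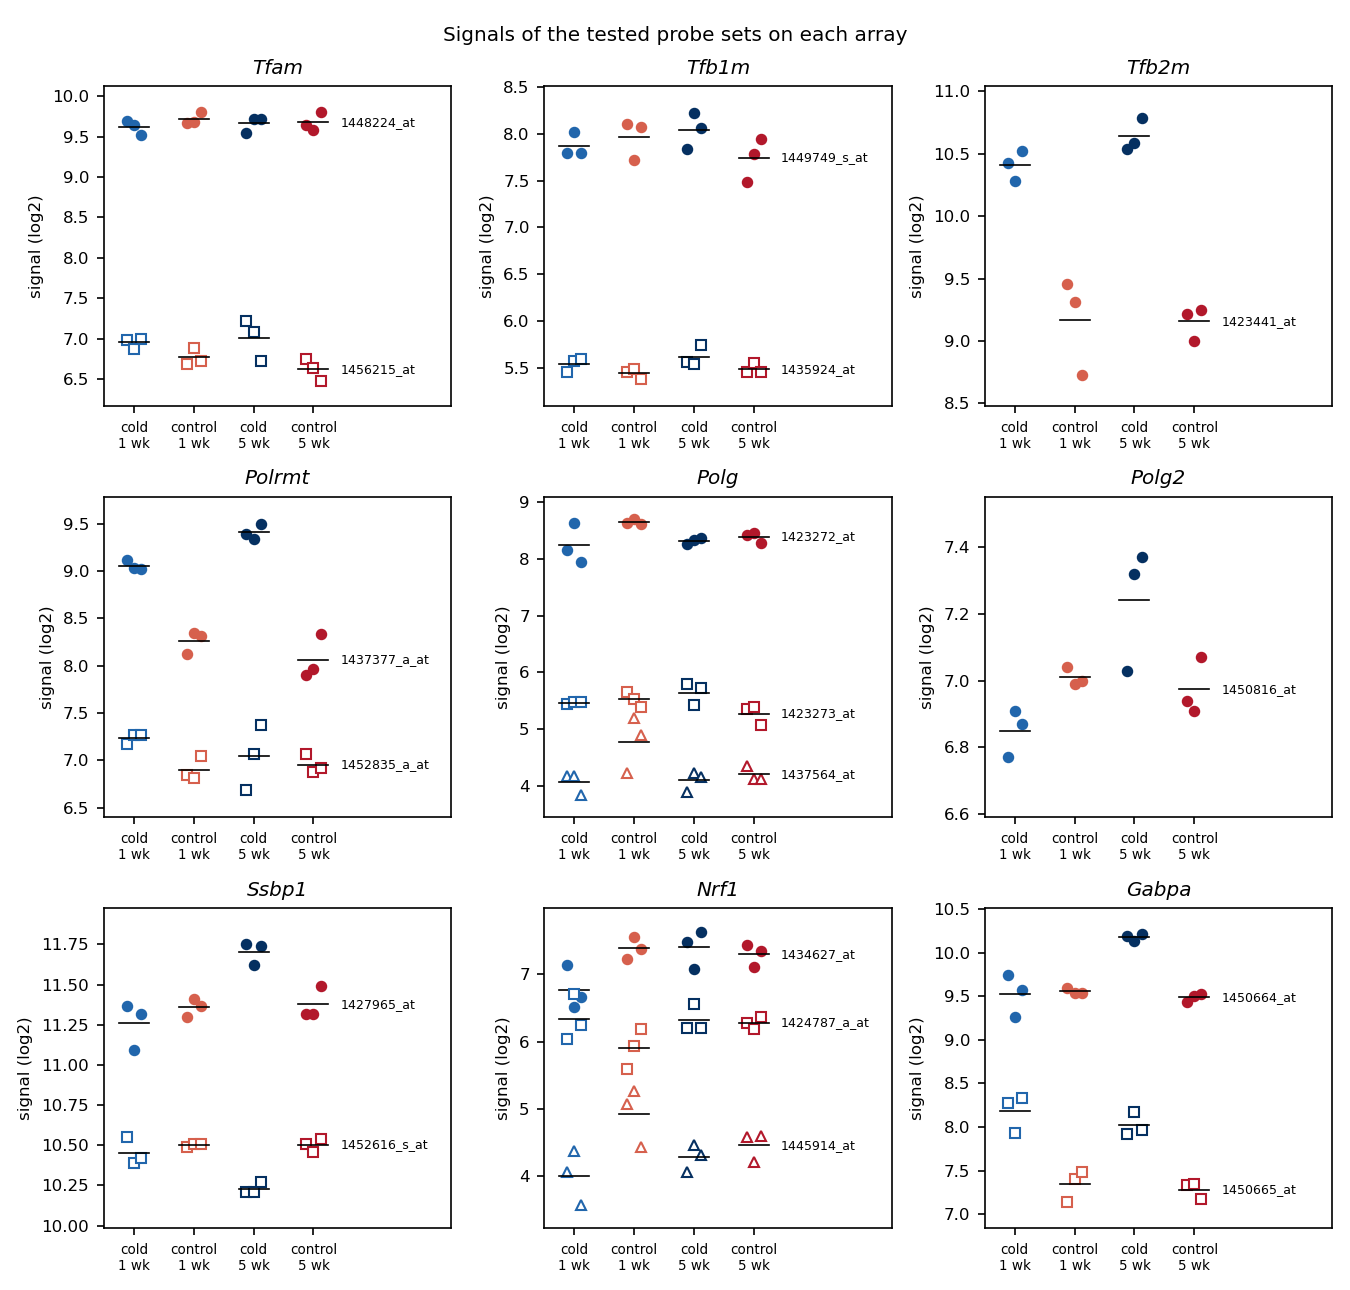
Each panel plots the log2 signal of every tested probe set of 1 gene on the 12 arrays, by group, with a bar at each group mean; filled points are the gene's brightest probe set. Cold arrays lie above controls at both times for Tfb2m (10.28 to 10.79 against 8.73 to 9.46) and for the brightest probe set of Polrmt, while the brightest probe set of Tfam stays between 9.52 and 9.81 in all groups.

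Among the replication genes Polg, Polg2 and Ssbp1 no change reached that of Tfb2m at either time. Polg (chr7:79446231-79467911), the catalytic subunit of DNA polymerase gamma, read log2 8.16, 8.63 and 7.94 in cold arrays at 1 week, against 8.64, 8.70 and 8.61 in controls (1423272_at). Cold array 2, the one with the high muscle signal, lay among the controls and the other 2 below them. The change of -0.41 (SE 0.15, adjusted p = 0.0404) sat close to the threshold, and it was not called after quantile normalization (-0.24), after centring (-0.25) or with the Gapdh covariate (-0.33). Leaving out single arrays ended the call in 10 of 12 cases and gave -0.60 to -0.26, the smallest fall being that without cold array 3. At 5 weeks the probe set gave 8.26, 8.34 and 8.37 in cold arrays and 8.43, 8.46 and 8.29 in controls, which overlap (-0.07, SE 0.15). The dim 1437564_at likewise fell at 1 week, by 0.71 (SE 0.21, adjusted p = 0.0189; -0.17 without control arrays 2 and 3), and gave -0.11 at 5 weeks. The third probe set, 1423273_at, differed from both, as it gave -0.06 at 1 week and rose by 0.37 at 5 weeks (SE 0.12, adjusted p = 0.0408). Single arrays left out ended the call of 1437564_at in 3 of 12 cases (control array 2 or 3, or cold array 3, of 1 week; -0.99 to -0.50) and that of 1423273_at in 8 of 12 (0.27 to 0.48).

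Polg2 (chr11:106768204-106779537), which clamps Polg to DNA, read log2 6.77, 6.91 and 6.87 in cold arrays at 1 week and 7.04, 6.99 and 7.0 in controls (1450816_at). All cold arrays were below the controls, by a small margin (-0.16, SE 0.10, adjusted p = 0.215). At 5 weeks it read 7.03, 7.32 and 7.37 in cold arrays, against 6.94, 6.91 and 7.07 in controls, with 1 cold array among them (0.27, SE 0.10, adjusted p = 0.0662). The value at 5 weeks was 0.42 and called after quantile normalization (adjusted p = 0.00847).

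Ssbp1 (chr6:40471414-40481823), the protein that coats single-stranded mitochondrial DNA during replication, showed opposite calls on its 2 tested probe sets at 5 weeks. On 1427965_at it read log2 11.75, 11.62 and 11.74 in cold arrays and 11.32, 11.32 and 11.49 in controls, all cold arrays above (0.33, SE 0.10, adjusted p = 0.0238). On 1452616_s_at it read 10.21, 10.21 and 10.27 in cold arrays and 10.51, 10.46 and 10.54 in controls, all cold arrays below (-0.27, SE 0.07, adjusted p = 0.0175). The rise lost its call in 4 of 12 cases with a single array left out (control array 1 or 2, or cold array 1 or 3, of 5 weeks) and the fall in 3 (control array 1 or 3, or cold array 1). The rise was also not called with the Gapdh, the Actb or the muscle covariate, and the fall not after centring or with Actb. At 1 week neither was called (-0.10, SE 0.10, and -0.05, SE 0.07). The suffix of 1452616_s_at marks a probe set that the array's makers expect to match more than 1 transcript.

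**Figure D3:**
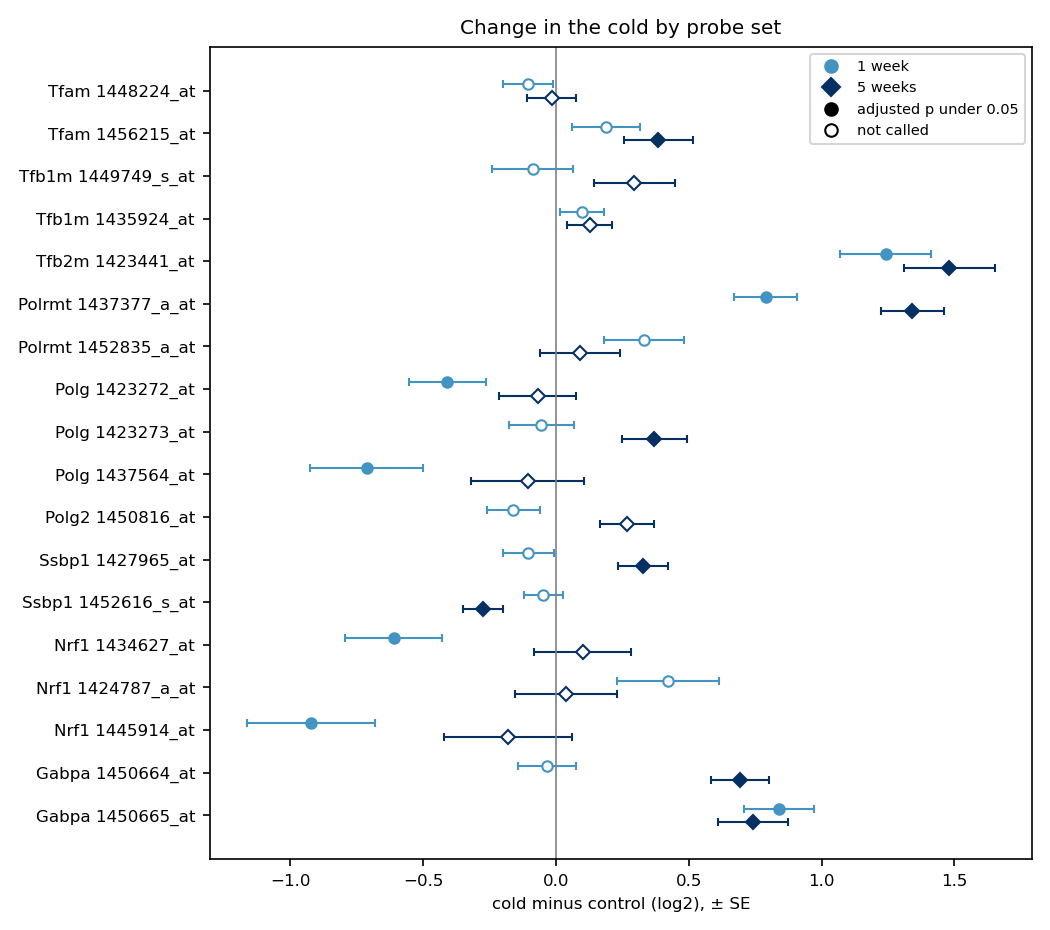
The plot gives cold minus control (log2, ± SE) at 1 week and at 5 weeks for the 18 tested probe sets, filled where the adjusted p is under 0.05. Tfb2m and the brightest probe set of Polrmt have the largest rises at 5 weeks (1.48 and 1.34), and the 2 probe sets of Ssbp1 lie on opposite sides of 0.

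Of the nuclear factors, Gabpa (chr16:84834891-84863783) rose on both probe sets at 5 weeks and on 1 at 1 week. On 1450664_at it read log2 9.74, 9.26 and 9.57 in cold arrays at 1 week and 9.59, 9.54 and 9.54 in controls, with the controls inside the wider range of the cold arrays (-0.03, SE 0.11). At 5 weeks it read 10.19, 10.14 and 10.21 in cold arrays and 9.44, 9.50 and 9.53 in controls. The groups were now far apart, at a change of 0.69 (SE 0.11, adjusted p = 9.08e-04), or 1.62-fold. On 1450665_at the cold arrays read 8.28, 7.93 and 8.33 at 1 week, against 7.14, 7.40 and 7.48 in controls, and 7.92, 8.17 and 7.97 at 5 weeks, against 7.33, 7.34 and 7.17 in controls. This probe set was above the controls at both times, by 0.84 (SE 0.13, adjusted p = 5.57e-04) and by 0.74 (SE 0.13, adjusted p = 0.00182). With the Actb covariate neither probe set was called at 5 weeks (0.56 and 0.89), and with the muscle mean 1450664_at was still called and 1450665_at was not (0.48, adjusted p = 0.0712).

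Nrf1 (chr6:30047985-30153458) fell on 2 of 3 probe sets at 1 week. Its brightest, 1434627_at, read log2 7.13, 6.52 and 6.66 in cold arrays and 7.23, 7.55 and 7.37 in controls, all cold arrays below (-0.61, SE 0.18, adjusted p = 0.0191). The dimmer 1445914_at also fell, by 0.92 (SE 0.24, adjusted p = 0.00987), with 4.06, 4.37 and 3.58 in cold arrays and 5.07, 5.27 and 4.44 in controls. The third, 1424787_a_at, pointed up without passing the test (0.42, SE 0.19, adjusted p = 0.0937), and it was called higher after centring (0.59, adjusted p = 0.0242). With the Gapdh covariate neither fall was called (-0.33, adjusted p = 0.374, and -1.01, adjusted p = 0.0770). The brightest was not called after quantile normalization (-0.46), after centring (-0.45) or with the muscle mean (-0.49), where adjusted p ran from 0.0567 to 0.0710. It was also lost without control array 2 (-0.53), cold array 2 (-0.49) or cold array 3 (-0.56), while 1445914_at was called with any single array left out. At 5 weeks the 3 probe sets gave 0.10, -0.18 and 0.04 with overlapping groups, and none was called.

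At 5 weeks 7 of the 18 probe sets rose and 1 fell, 44.4% called against 31.1% of all tested probe sets (12.6% higher and 18.5% lower). The median change over the 18 was -0.05 at 1 week and 0.20 at 5 weeks, against -0.04 and -0.02 over all tested probe sets. Of the 7 genes with more than 1 tested probe set, no gene had all of them called the same way at 1 week and 1, Gabpa, did at 5 weeks. The matching share over all genes of the array was not counted, so these counts have no background to be read against. Centring the arrays on the median of the tested probe sets raised the cold changes by 0.16 at 1 week and 0.15 at 5 weeks. It moved the share of all calls that were higher at 1 week to 60.9%, against 39.1% without it (quantile normalization, 47.6%), and those at 5 weeks to 67.1%, against 40.5%. Among the 18 probe sets it gave 7 rises and 2 falls at 1 week, and 10 rises and 0 falls at 5 weeks. Among all 26510 tested probe sets it gave 8249 rises and 5295 falls at 1 week, and 6668 rises and 3274 falls at 5 weeks. Tfb2m, Polrmt (1437377_a_at) and Gabpa (1450665_at) were called higher after centring, after quantile normalization and with any single array left out, at both times.

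The difference of the cold effects, 5 weeks minus 1 week, was called for 3 of the 18 probe sets, all positive (16.7%, against 19.6% of all tested probe sets, 10.2% higher and 9.47% lower; by brightest probe sets, 10.8% higher and 7.81% lower among all genes). They were Gabpa 1450664_at (0.73, SE 0.15, adjusted p = 0.0124), Polrmt 1437377_a_at (0.55, SE 0.17, adjusted p = 0.0412) and Ssbp1 1427965_at (0.43, SE 0.14, adjusted p = 0.0464). Tfb2m gave 0.24 (SE 0.24, adjusted p = 0.515), and Tfam 0.09 (SE 0.13, adjusted p = 0.679) on its brightest probe set. None of the 3 was called with the Gapdh, the Actb or the muscle covariate (with muscle, 0.34, 0.52 and 0.18), nor without control arrays 2 and 3 of 1 week. Gabpa was called with any single array left out, while Polrmt lost the call in 10 of 12 such cases (0.47 to 0.69) and Ssbp1 in 9 (0.35 to 0.49). The difference for Ssbp1 was also not called after centring or quantile normalization, and that for Polrmt not with no filter on dim probe sets.

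Directly between the 2 times, 6 of the 18 probe sets differed in the cold and none in controls, against 28.4% (15.6% higher, 12.8% lower) and 3.33% (2.12% higher, 1.21% lower) of all tested probe sets (limma; at an unadjusted p under 0.05, 1 probe set in controls, Polg 1437564_at). In cold arrays the 5 week signal was higher for Gabpa 1450664_at (0.66, SE 0.11), Nrf1 1434627_at (0.62, SE 0.18), Ssbp1 1427965_at (0.45, SE 0.10), Polg2 (0.39, SE 0.10) and Polrmt 1437377_a_at (0.35, SE 0.12). It was lower for Ssbp1 1452616_s_at (-0.23, SE 0.07). With single arrays left out 2 to 6 probe sets were called. These comparisons share arrays with the cold effects above.

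Genes whose signals followed Tfb2m and Polrmt most closely were found by the root mean square difference of mean-centred signals over the 12 arrays, among 12854 other genes. Nearest to Tfb2m were Uqcrc2, a core subunit of complex III, at 0.131 log2 units (cold changes 1.23 at 1 week and 1.38 at 5 weeks), and Timm44, part of the motor that imports proteins into mitochondria, at 0.156 (1.41 and 1.38). Nearest to Polrmt were Cox15, which makes heme A for cytochrome c oxidase, at 0.130 (0.89 and 1.27), and Afg3l2, a protease of the inner membrane, at 0.132 (0.96 and 1.28). Each is the brightest probe set of its gene, and the figures are descriptions of 12 arrays.

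Further genes that act beside the 9 were taken from lists, each by its brightest probe set. In the background of 12855 tested genes 17.1% rose and 30.5% fell at 1 week (median -0.08), and 13.9% rose and 19.9% fell at 5 weeks (median -0.03). Of 24 tested genes of mitochondrial transcription, RNA processing and RNA stability, of 25 listed, 13 rose and 3 fell at 1 week, and 11 rose and 1 fell at 5 weeks, with medians of 0.40 and 0.30. Tefm, the elongation factor that partners Polrmt, rose by 0.81 (SE 0.11) at 1 week and 1.07 (SE 0.11) at 5 weeks. Lrpprc, which stabilises mitochondrial messenger RNA, rose by 0.74 (SE 0.13) and 1.22 (SE 0.13), Fastkd1, an RNA-binding protein of mitochondria, by 0.78 and 1.17 (SE 0.09 each), and the helicase Supv3l1 by 0.66 and 1.00 (SE 0.10 each). The other probe set of Supv3l1 gave 0.13 and 0.16, neither called. Rexo2, which degrades short RNAs, rose by 0.68 at 1 week (SE 0.10) and 0.75 at 5 weeks, and Tbrg4, a relative of Fastkd1, by 1.28 (SE 0.16) and 0.96 on its brightest probe set. Its other probe sets gave -0.11 to 0.83 at 5 weeks. Against the majority, Mterf1a (-0.55), Mterf3 (-0.42), both of the mitochondrial transcription termination factor family, and Dhx30 (-0.51) fell at 1 week, and Dhx30 fell at 5 weeks (-0.46). Dhx30 gave 0.39 and a call upward on another probe set at 5 weeks.

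Of 14 other genes of mitochondrial DNA replication, repair and nucleoids, all tested, 5 rose and 3 fell at 1 week (median 0.24), and 7 rose at 5 weeks (median 0.27). Endog, a nuclease of mitochondria, rose by 1.13 and 1.24 (SE 0.15 each), Clpx, the unfoldase of a matrix protease, by 0.73 and 0.67 (SE 0.11 each), Lonp1, a matrix protease that degrades Tfam, by 0.98 and 0.44 (SE 0.14 each), and Atad3a, a membrane protein linked to nucleoids, by 0.69 and 0.88 (SE 0.15 each). The other probe set of Clpx gave -0.08 at 1 week, not called, and 0.70 at 5 weeks, called higher. Twnk, the helicase that works with Polg and Ssbp1, gave 0.05 at 1 week and 0.14 at 5 weeks (SE 0.08 each, adjusted p = 0.657 and 0.195). The nuclease Dna2 fell at 1 week (-1.52, SE 0.24), as did Rnaseh1 (-0.67, SE 0.11), which removes RNA primers. Lig3, the DNA ligase of mitochondria, gave -0.49 at 1 week and 0.64 at 5 weeks, and its other 3 probe sets that could be compared gave 0.17 to 0.71 at 1 week and -0.24 to 0.05 at 5 weeks. The flap nuclease Fen1 rose by 0.43 at 1 week and 0.26 at 5 weeks, while its other probe set gave -0.37 at 1 week and was called lower at 5 weeks (-0.40, adjusted p = 0.0499).

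Of 9 tested genes that supply deoxynucleotides to mitochondria, of 11 listed, 5 rose and 1 fell at 1 week, and 4 rose and 3 fell at 5 weeks (medians 0.36 and 0.11). Suclg1 (1.88 and 1.52, SE 0.12 each) and Sucla2 (1.47 and 1.56, SE 0.18 each), subunits of succinyl-CoA ligase, also belong to the tricarboxylic acid cycle. The pyrimidine nucleotide carrier Slc25a33 rose by 1.11 and 0.66 (SE 0.13 each) and the nucleotidase Nt5m by 0.36 at 1 week. The carrier Slc25a36 rose by 0.32 at 5 weeks. The salvage kinases Dguok (-0.70, SE 0.10) and Tk2 (-0.77, SE 0.17; 0.52 and called higher at 1 week) fell at 5 weeks, beside the fall of the muscle mean given above, as did Rrm1 (-0.37, SE 0.12), a subunit of ribonucleotide reductase. Rrm2b, its subunit in resting cells, fell by 0.73 at 1 week (SE 0.11), while its other 3 probe sets gave -0.11 to 0.66. The part of muscle RNA in these falls was not tested.

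Among 12 partners and coactivators of Nrf1 and Gabpa, 3 rose and 8 fell at 1 week, and 2 rose and 4 fell at 5 weeks (medians -0.60 and -0.14). The coactivators Ppargc1a (1.64 and 1.79, SE 0.16 each) and Ppargc1b (1.63 and 1.82, SE 0.17 each) rose, and Pprc1, the third of that family, fell (-0.65 and -1.06, SE 0.18 each). Esrra, a nuclear receptor that works with Ppargc1a, rose at 1 week (1.23, SE 0.21) and gave 0.13 at 5 weeks (adjusted p = 0.683). Its other probe set gave -0.36 and -0.40, neither called. Gabpb1, which binds Gabpa to form the active complex, fell by 0.85 and 0.80 (SE 0.15 each). The other probe set of Gabpb1 gave -0.65 and -0.50, neither called. For Gabpa, the brightest probe set gave -0.03 at 1 week and rose by 0.69 at 5 weeks, and 1450665_at rose by 0.84 and 0.74. Gabpb2 fell at 1 week on its brightest probe set (-0.95, SE 0.16), while its other probe set gave -0.02 and was not called. Creb1 (-1.25, SE 0.19, and -0.61) and Yy1 (-0.90, SE 0.11, and -0.59) also fell, but their other probe sets disagreed at 1 week, with 0.10 to 0.29 on 3 and -1.11 on 1 for Creb1, and -0.09 to 0.84 on 3 for Yy1. At 5 weeks these other probe sets gave -0.16 to 0.07 for Creb1 and -0.38 to 0.08 for Yy1, and none was called. Of 15 transcripts encoded by the mitochondrial genome itself, none was named by a probe set with 1 gene, so the output of the machinery was not analysed here.

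**Figure D4:**
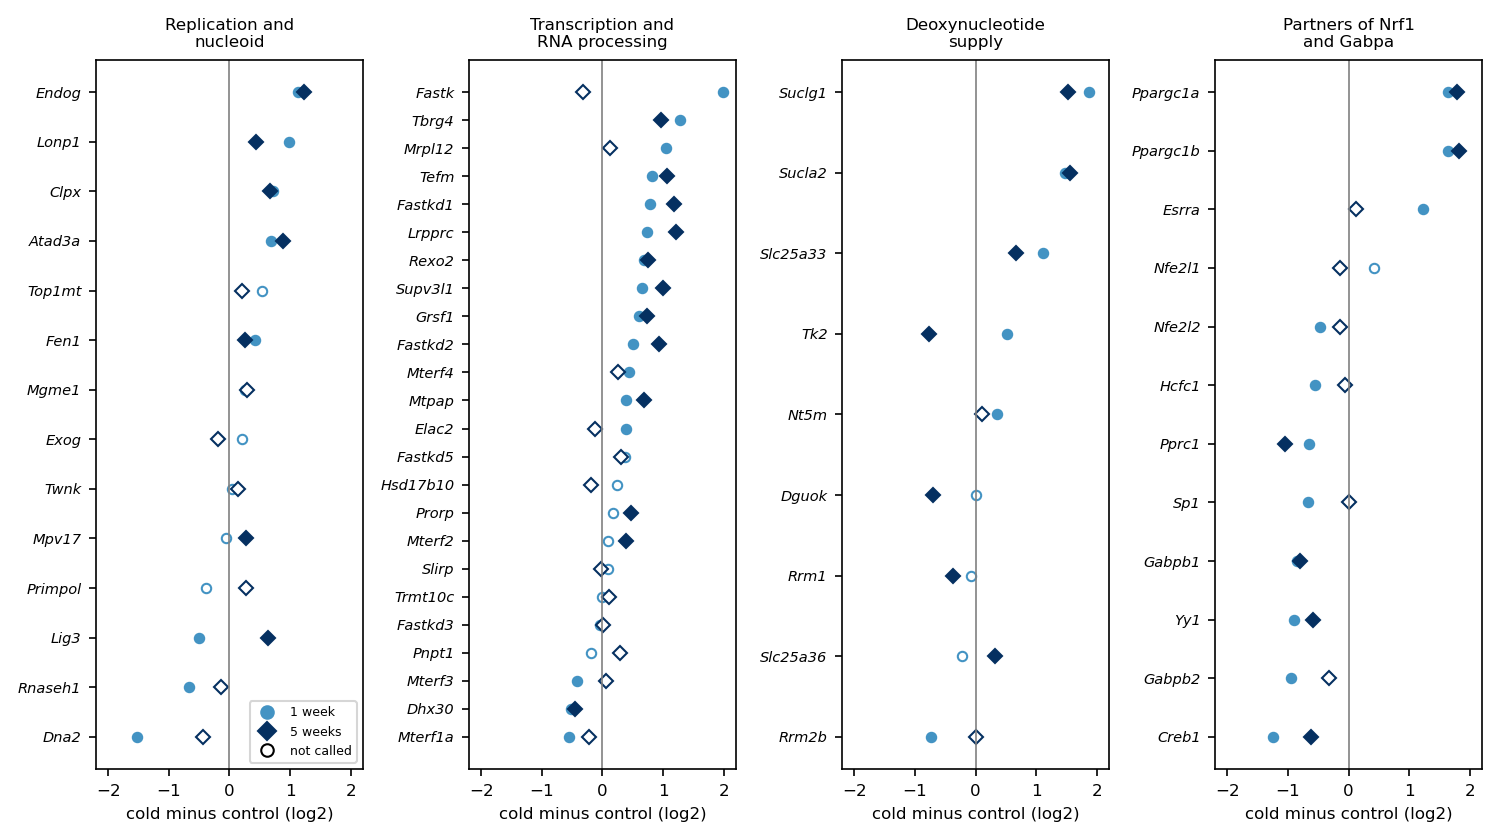
The panels plot cold minus control (log2) at 1 week and 5 weeks for each tested gene of the 4 lists, sorted by the change at 1 week, filled where called. Transcription and RNA processing genes lie mostly right of 0 (median 0.40 at 1 week), and most partners of Nrf1 and Gabpa lie left of 0 at 1 week (median -0.60), with Ppargc1a and Ppargc1b apart on the right.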

How the data were processed

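Per the submitters' processing notes, the authors made the deposited log2 signals with GCRMA, which corrects background, normalizes between arrays and summarises each probe set. Its version is not given in the sources used here. Symbols came from the array annotation, updated through gene identifiers. The 64 control probe sets were left out. The remaining probe sets above log2 4 on at least 3 arrays (26510) were fitted in R 4.3.3 with limma 3.58.1 (lmFit, eBayes, 4 group means, 12 arrays), with two-sided tests and Benjamini-Hochberg adjustment over all tested probe sets of each contrast at 0.05. The fit was tested on simulated data. Members and lists were chosen with earlier results of these data known. All probe sets of the 9 members were named. For lists the rule was up to 4 called genes with the smallest adjusted p in each direction and time, those called against the majority, and Ppargc1a, Ppargc1b, Pprc1, Esrra and Gabpb1; other probe sets of list genes and Twnk were chosen after their values were seen. The brightest probe set has the highest mean over all arrays. Alternatives were other filters, scalings, summaries per gene, covariates and arrays left out. No 2 arrays of a group were alike beyond r = 0.998. The number of arrays limits the precision.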

Additional observations from a re-analysis of the deposited data

Results flagged for a closer look

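For 3 probe sets the test of the difference itself separated the cold effects of the 2 times. Gabpa 1450664_at gave 0.69 at 5 weeks and -0.03 at 1 week, a difference of 0.73 (SE 0.15, limma adjusted p = 0.0124), whereas Gabpa 1450665_at gave -0.10 (SE 0.19). Polrmt 1437377_a_at changed by 1.34 at 5 weeks and 0.79 at 1 week, a difference of 0.55 (SE 0.17, adjusted p = 0.0412), and Polrmt 1452835_a_at gave -0.24 (SE 0.21). Ssbp1 1427965_at gave 0.33 at 5 weeks and -0.10 at 1 week, a difference of 0.43 (SE 0.14, adjusted p = 0.0464), and Ssbp1 1452616_s_at gave -0.23 (SE 0.11). In each gene the second probe set pointed the other way and was not called.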

How the results depend on the processing

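Of the 18 probe sets under the alternatives, no called value turned its direction at 1 week, at 5 weeks or in the difference. With single arrays left out, the counts were 3 to 4 higher and 1 to 4 lower at 1 week, 4 to 7 higher and 0 to 1 lower at 5 weeks, 1 to 4 positive differences, 2 to 6 between times in the cold and 0 to 1 in controls. The replicate block left 3 higher and 4 lower at 1 week, 7 higher and 1 lower at 5 weeks, 2 positive differences, 5 between times in the cold and 0 in controls; the call it ended among the differences was that of Ssbp1 1427965_at. Same-numbered arrays of different groups had deviations correlating at -0.17 to 0.16. With 3 arrays per group these values cannot decide whether the numbers pair samples, and the main fit did not pair them. The fit on 6 arrays was not run for the difference, which needs all 12. The 4 falls at 1 week became 2 with a filter at log2 6, centring, quantile normalization, the brightest probe set of each gene, the mean of the probe sets of each gene, or only the 6 arrays of the comparison, 1 without control arrays 2 and 3, and 0 with the Gapdh covariate; the 3 rises became 7 with centring. The 7 rises at 5 weeks became 4 with brightest probe sets, 3 with gene means, 3 with the muscle covariate and 1 with Actb, but 10 with centring, 9 with quantile normalization and 9 with no filter, and the 1 fall became 0 with centring, brightest probe sets, gene means and Actb. In place of 3 positive differences, gene means, Gapdh, Actb and leaving out control arrays 2 and 3 gave 0. The muscle covariate ended all 3 and gave 1 other, Polg 1423272_at (0.91, adjusted p = 0.0297). In the cold, the 6 probe sets that differed between times became 1 with gene means, 3 with only 6 arrays, 2 with Gapdh and 0 with Actb, and in controls the muscle covariate gave 1. Brightest probe sets and gene means test 12855 genes, and the filter at log2 6 tests 19213 probe sets, so their counts are of fewer features. Nrf1 1445914_at and Polg 1437564_at, 2 of the 4 falls, were tested neither with that filter nor with brightest probe sets. The fit with no filter covers all 22 probe sets of the 9 genes. Its 9 rises at 5 weeks are therefore not all among the 18.

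Over all tested probe sets, 11847 were called at 1 week, 8254 at 5 weeks and 5203 in the difference, and with single arrays left out 9479 to 12157, 5948 to 8867 and 2838 to 6034. Brightest probe sets gave 6361, 4655 and 2551 and gene means 6054, 4666 and 2235. The Gapdh covariate gave 4893 at 1 week and 5 in the difference, Actb 1056 at 5 weeks and 0 in the difference, control arrays 2 and 3 left out 4555 and 331, and the muscle covariate 4269 at 5 weeks and 1405 in the difference. The covariates move with the groups, and the cause of these shifts was not tested.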
